A study of Mus musculus with 899 samples.

Results

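The 5 mature miRNA described here were mmu-miR-34b-3p, mmu-miR-34b-5p, mmu-miR-34c-3p, mmu-miR-34c-5p and mmu-miR-449a-5p, written without the mmu prefix from here on, measured in mouse plasma by small RNA sequencing. They were chosen by name, with earlier results of these data known, and all 5 of them were found among the 1915 miRNA of the count table. Plasma was drawn from mice of the C3H and C57Bl/6 strains given whole thorax lung irradiation (WTLI) or sham irradiation, 899 samples of 196 mice in 32 groups of strain, treatment and time. All mice were gnotobiotic young adults of the named inbred strains, with females and males in every group, and sham irradiated mice of the same strain were the controls. The C3H set held 64 irradiated and 32 sham mice, and the C57Bl/6 set held 68 irradiated and 32 sham mice. Every mouse was meant to be bled before irradiation (PT) and again at 1 or more later times, but 4 irradiated C57Bl/6 mice had no PT sample. The later times were day 2 (D2) or day 5 (D5), then month 1 (M1) to month 4 (M4) in C3H and to month 6 (M6) in C57Bl/6. Mice of cohort 1 were followed beyond M1 and mice of cohort 2 only up to M1. Live mice were bled behind the eye and euthanized mice from the heart, and the labels do not say which sample came from which site. Plasma is cell free, so no cell type was assigned to any value.

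MicroRNA are short RNA that pair with messenger RNA, mostly through bases 2 to 8 from their 5′ end, the seed, and reduce the output of their targets. A hairpin precursor is cut into a 5p and a 3p arm, and either arm may be kept. The miR-34 and miR-449 genes form a family with a common 5p seed. miR-34a is expressed in many tissues and is a well known target of the tumour suppressor p53, which is activated by radiation. miR-34b and miR-34c come from 1 shared transcript that p53 can also induce. Together with miR-449 they are most abundant in cells that carry motile cilia, such as those of the airway, oviduct and ependyma, and in the testis, and they are needed for normal cilia formation.

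The mature sequences are shown because the results are ordered by arm and seed, and the seed in capitals shows which members are alike. They are RefSeq sequences of GRCm38.p6, written 5′ to 3′, and were matched for 4 of the 5 members. The reference had no mature entry for miR-34c-5p, so its sequence is not shown and its seed was not read here. miR-34a-5p and miR-449c-5p, which are relatives and not members, are given for comparison.
miR-34b-3p: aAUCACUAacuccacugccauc
miR-34c-3p: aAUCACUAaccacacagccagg
miR-34b-5p: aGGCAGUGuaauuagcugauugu
miR-449a-5p: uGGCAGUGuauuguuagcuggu
miR-34a-5p: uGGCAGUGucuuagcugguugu
miR-449c-5p: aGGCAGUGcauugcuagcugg
The 3p arms had the seed AUCACUA, which 2 of 1679 mature mouse miRNA in the reference carried, namely these 2. The seed GGCAGUG was carried by 4 of the 1679, which are the last 4 sequences shown. miR-34c-5p was not among the 1679, so this list of carriers leaves it out. miR-34b-3p and miR-34c-3p had the same base at 17 of 22 positions, including the first 10. miR-449a-5p and miR-34a-5p had the same base at 15 of 22 positions, including the first 9. How reads that match more than 1 family member were assigned is not given in the sources used here, and its part in the likeness between these pairs was not tested.

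The miR-34b and miR-34c hairpins lay 451 bases apart on chromosome 9 of mm10 (GRCm38), at chr9:51103562-51103645 and chr9:51103034-51103110, both on the minus strand. Both were inside Btg4, a gene on the opposite strand, and overlapped none of its exons. The mature arms were at chr9:51103574-51103595 for miR-34b-3p, chr9:51103610-51103632 for miR-34b-5p and chr9:51103044-51103065 for miR-34c-3p. The miR-449a hairpin was at chr13:113037534-113037624 on the plus strand, inside an intron of Cdc20b and on the strand of that gene, and its 5p arm was at chr13:113037549-113037570. The miR-449c hairpin lay 1442 bases from it in the same gene.

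All 5 members were rare in plasma, with 0.00896% of all reads together. Among all miRNA ranked by total reads, miR-34c-5p was 165th with 54199 reads, miR-34c-3p 181st with 42443, miR-34b-3p 203rd with 30143, miR-449a-5p 295th with 6913 and miR-34b-5p 367th with 2889. The median sample held 42 reads of miR-34c-5p, 36 of miR-34c-3p, 26 of miR-34b-3p, 5 of miR-449a-5p and 1 of miR-34b-5p. No read was found in 7, 4, 9, 181 and 403 of the 899 samples in the same order. The other arms of the family were rarer still: miR-34a-3p had 32 reads, miR-449c-5p 1326 reads in 322 samples, and miR-449a-3p, miR-449b and miR-449c-3p had 0 reads. Only miR-34a-5p, with 429157 reads and at least 1 read in all 899 samples, was more abundant than the members. Depth ranged from 206490 to 11814515 reads per sample, so a value near 1 to 5 reads was mostly counting error and miR-34b-5p and miR-449a-5p could show only large differences.

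Levels are given as log2 CPM, the reads of a miRNA scaled to a fixed library size (counts per 1000000 reads), where a sample with 0 reads stands at 0.23, and differences as log2 fold changes of irradiated minus sham mice. These are shares of the miRNA reads of a sample, so a higher amount of 1 miRNA and a lower amount of the others cannot be told apart, nor can the number of source cells and the RNA released per cell. A difference was called at an adjusted p under 0.05, from the quasi-likelihood test of edgeR, adjusted over all 483 miRNA tested by Benjamini-Hochberg. The labels name no processing batch.

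Some libraries stood apart, and the results that rest on them are given with and without them. Before irradiation, the 24 C57Bl/6 males of cohort 2 had a median of 610583 reads and a miR-34b-3p level of 4.93 ± 0.83 (SD), whereas the 3 other C57Bl/6 sets of cohort and sex had mean levels of 3.21, 3.34 and 3.51. The 4 sham C57Bl/6 females of cohort 2 at D5 had low levels of miR-34c-3p (mean 2.96) and miR-34c-5p (mean 2.75), against 4.31 to 4.84 and 4.74 to 4.95 in the other 3 sham sets of that day. In the C57Bl/6 groups at D2 and D5, only 9 of 32 and 14 of 32 irradiated libraries and 14 of 16 and 6 of 16 sham libraries reached 1000000 reads.

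**Figure D1:**
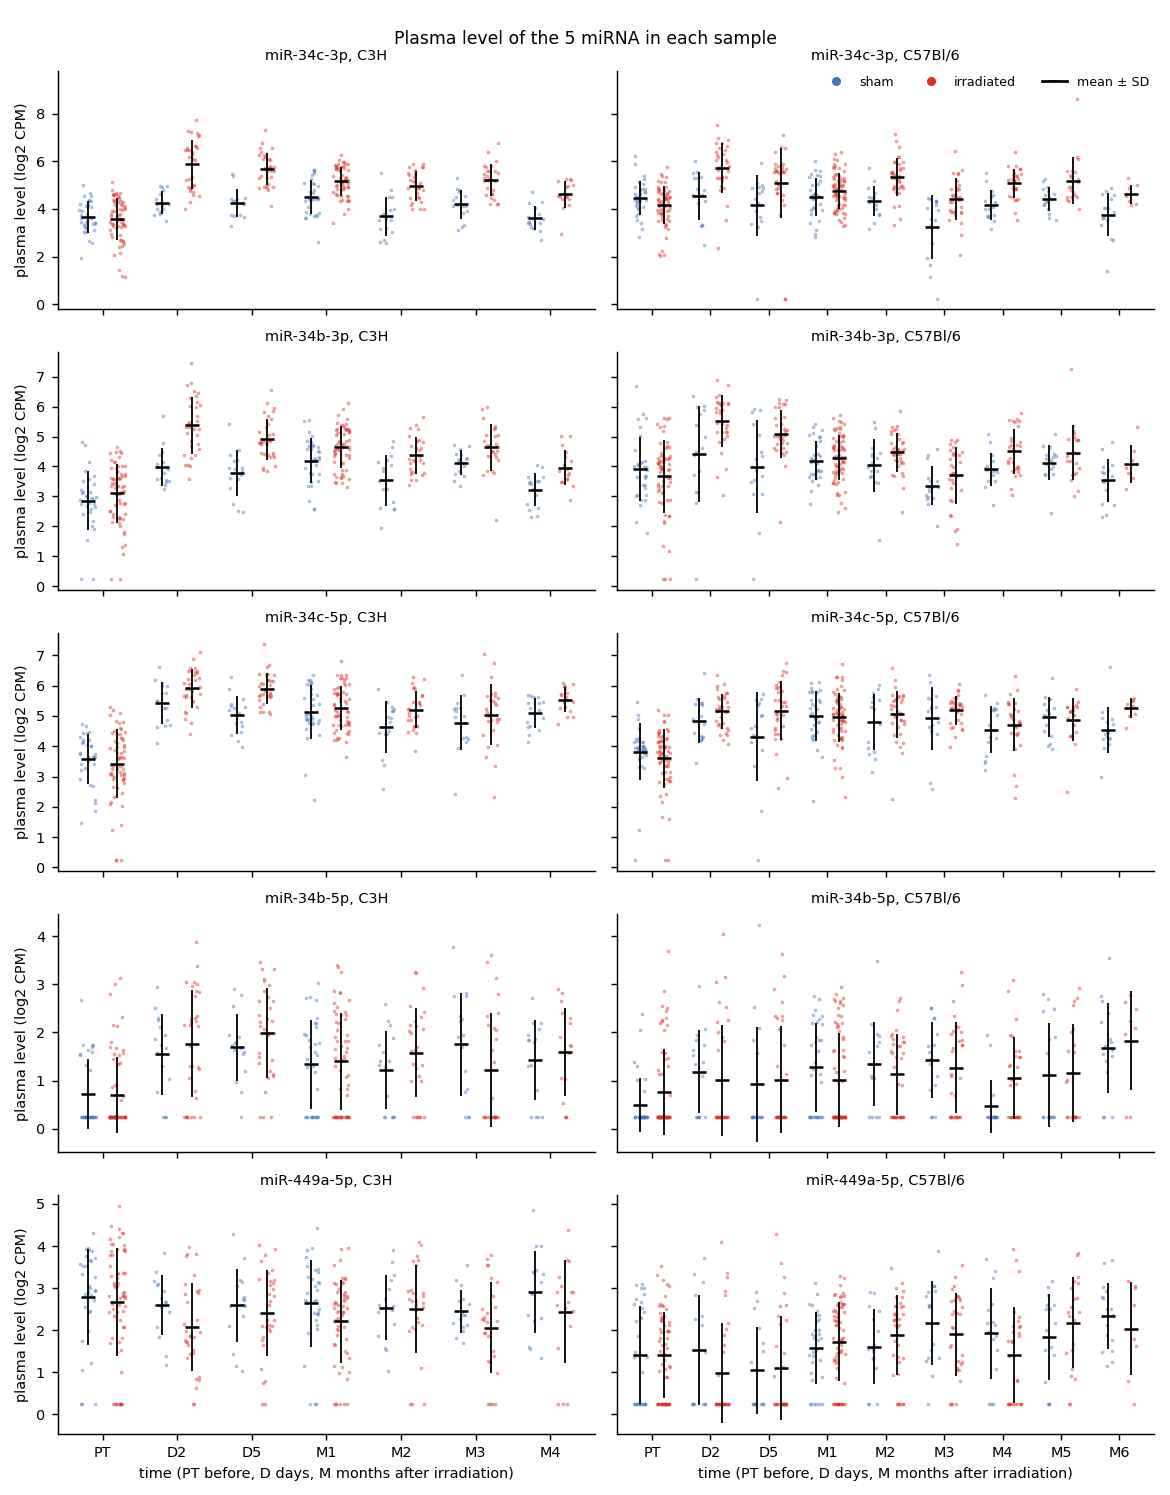
Plasma level in log2 CPM of each member in every sample, by time and strain, with sham mice in blue, irradiated mice in red and black bars for the mean ± SD. miR-34c-3p of irradiated C3H mice at D2 ran from 4.01 to 7.74 against 3.48 to 4.96 in sham mice, and many miR-34b-5p and miR-449a-5p samples lay on the line of 0 reads at 0.23.

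Before irradiation, no member was called between mice later irradiated and mice later sham treated. The differences ran from -0.04 to 0.26 in C3H and from -0.27 to 1.03 in C57Bl/6, and 0 of 10 comparisons were called by edgeR's quasi-likelihood test. Of all 483 miRNA, 0 were called in either strain at PT (0.0%). At an unadjusted p under 0.05, 1 of the 10 passed, miR-34b-5p in C57Bl/6, which had a median of 0 reads in both groups, beside 6.63% of all miRNA in C3H and 5.18% in C57Bl/6.

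The first question was whether WTLI changed the members in plasma. After irradiation, the members were called in 9 of 30 comparisons in C3H and in 6 of 40 in C57Bl/6, and each of these calls was higher in irradiated mice. Over all 483 miRNA the share called was 2.42% in C3H (1.04% higher in irradiated mice) and 4.76% in C57Bl/6 (2.46% higher). Since the members were chosen with earlier results of these data known, these counts are no independent test of an excess. By time, from D2 on, the share was 4.97%, 3.11%, 3.31%, 0.621%, 2.07% and 0.414% in C3H, of which 1.66%, 1.66%, 1.66%, 0.207%, 0.828% and 0.207% was higher. In C57Bl/6 it was 6.63%, 14.1%, 3.73%, 3.31%, 1.66%, 4.76%, 3.52% and 0.414%, of which up to M5 2.28%, 6.21%, 1.66%, 2.28%, 1.24%, 3.11% and 2.48% was higher. Of the 9 calls in C3H, 6 were miR-34c-3p, 2 were miR-34b-3p and 1 was miR-34c-5p, and all 6 in C57Bl/6 were miR-34c-3p. At an unadjusted p under 0.05, 14 and 13 comparisons of members passed, beside 354 of 2898 and 622 of 3864 over all miRNA. When each mouse was set against its own PT sample (limma-voom with the mouse as a fixed block), 3 of the 30 C3H comparisons and 8 of the 40 C57Bl/6 comparisons were called. The share of all miRNA called in that fit was not counted, and the shares above belong to the edgeR model.

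miR-34c-3p, the 3p arm of the miR-34c hairpin, rose at every time tested in C3H. At D2 the 16 sham mice had a lowest level of 3.48, a median of 4.21 and a highest of 4.96, and the 32 irradiated mice 4.01, 6.12 and 7.74. These groups overlapped in part, with 23 of the 32 irradiated mice above the highest sham mouse. The difference was 1.92 ± 0.26 (SE), a 3.78-fold higher level (adjusted p = 1.25e-10), and 2 of the 483 miRNA had a larger rise at that time. At D5 the sham mice ran from 3.30 over a median of 4.25 to 5.47 and the irradiated mice from 4.13 over 5.71 to 7.33. Here 20 of 32 irradiated mice exceeded every sham mouse, and the difference was 1.51 ± 0.26 (adjusted p = 1.39e-06).

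The estimated difference in C3H was smallest at M1 and larger at M2 to M4. The times were not tested against each other, and M1 held both cohorts while the later times held cohort 1 only. At M1 the 32 sham mice ran from 2.59 over a median of 4.41 to 5.65 and the 58 irradiated mice from 3.40 over 5.18 to 6.25. That is a shift of 0.64 ± 0.18 (adjusted p = 0.0177), and the ranges largely overlapped. At M2 the medians were 3.59 in 16 sham and 4.98 in 28 irradiated mice, and the difference was 1.24 ± 0.26 (adjusted p = 0.000759). All 28 irradiated mice at M2 and all 27 at M3 lay above the sham median of their time. At M3 the difference was 1.09 ± 0.26 (adjusted p = 0.00441) and at M4, with 17 irradiated and 16 sham mice, 1.08 ± 0.28 (adjusted p = 0.0298). miR-34c-3p was 1 of 483 miRNA (0.207%) called higher at 3 or more C3H times. Against each mouse's own PT sample, the calls at D2, D5 and M2 held and those at M1, M3 and M4 did not (adjusted p = 0.141, 0.0702 and 0.0976, limma-voom).

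In C57Bl/6, miR-34c-3p rose at 6 of 8 times, with differences close to 1 on the log2 scale. At D2 the 16 sham mice ran from 2.50 over a median of 4.69 to 6.00 and the 32 irradiated mice from 2.35 over 5.78 to 7.51. The groups overlapped over most of their range, 29 of 32 irradiated mice lay above the sham median, and the difference was 1.21 ± 0.26 (adjusted p = 0.000172). At M2 it was 1.13 ± 0.25, at M3 1.05 ± 0.26, at M4 0.94 ± 0.26 and at M5 1.25 ± 0.27 (adjusted p = 0.00113, 0.00337, 0.0108 and 0.00033). By M3 the sham level itself fell by 1.01 from PT. At M1, with 68 irradiated and 32 sham mice, it was 0.25 ± 0.17 (adjusted p = 0.561), and at M6, with 8 irradiated mice, 0.73 ± 0.34 (adjusted p = 0.527). All 8 irradiated mice at M6 were nevertheless above the sham median. In C57Bl/6, 2 of 483 miRNA (0.414%) were called higher at 6 or more times, and miR-34c-3p was 1 of them.

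The D5 value in C57Bl/6 rested on few libraries. The sham mice ran from 0.23 over 4.52 to 5.93 and the irradiated mice from 0.23 over 5.54 to 7.09, with 1 sham and 2 irradiated mice at 0 reads. The difference was 0.99 ± 0.26 (adjusted p = 0.00246). Without the 12 C57Bl/6 females of cohort 2 it was 0.80 (adjusted p = 0.112), and among libraries of at least 1000000 reads it was 0.20 (adjusted p = 0.877). On that day the difference of the group means was 0.18 in cohort 1 females, 0.18 in cohort 1 males, 0.81 in cohort 2 males and 2.56 in cohort 2 females. These are means of log2 CPM, in which a sample with 0 reads counts as 0.23, whereas fitted differences come from the read counts. With cohort 1 alone, the fitted difference was 0.86 and was not called (adjusted p = 0.152), so the D5 call in C57Bl/6 depended on which libraries were kept.

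Across cohorts and sexes the direction of miR-34c-3p was steady. The irradiated mean was above the sham mean in all 18 sets of cohort, sex and time in C3H, by 0.59 to 2.36, and in 21 of 22 sets in C57Bl/6, from -0.15 to 2.56. The same mice recur at several times, so these sets are not independent. This was not particular to miR-34c-3p. miR-34a-5p, a relative and not a member, lay above in 18 of 18 C3H and 22 of 22 C57Bl/6 sets. For miR-34b-3p it was 18 of 18 and 20 of 22, and such counts over all miRNA are not given here. At PT the irradiated mean was above the sham mean in 2 of 4 C3H sets (-0.75 to 0.28) and in 1 of 4 C57Bl/6 sets (-1.02 to 0.20). In C3H at D2, all 32 irradiated mice had a higher miR-34c-3p level than in their own PT sample (mean rise 2.37 ± 0.94, SD), and so did 11 of 16 sham mice (0.59 ± 0.93). In C57Bl/6 at D2 it was 31 of 32 irradiated mice (1.71 ± 1.04) and 9 of 16 sham mice (-0.10 ± 1.05). For miR-34a-5p at D2 it was 32 of 32 irradiated mice in each strain. Of the sham mice it was 15 of 16 in C3H and 14 of 16 in C57Bl/6.

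**Figure D2:**
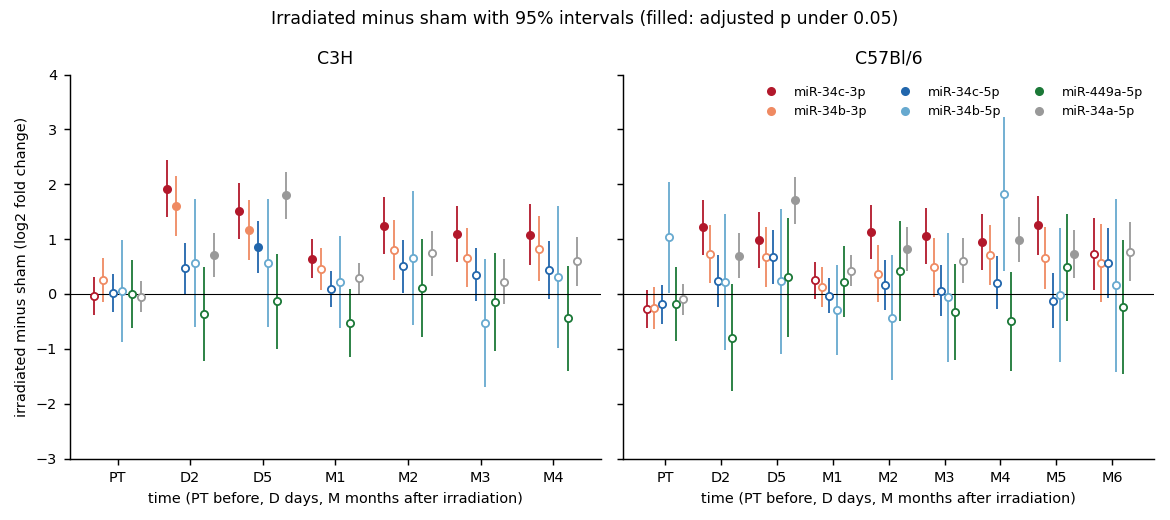
Irradiated minus sham log2 fold change of each member and of miR-34a-5p by time and strain, with 95% intervals, and filled points where the adjusted p was under 0.05. miR-34c-3p is filled at 6 of 6 C3H times and at 6 of 8 C57Bl/6 times after irradiation, and no member is filled at PT.

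miR-34b-3p, which comes from the same transcript and has the same seed as miR-34c-3p, was called at D2 and D5 in C3H and at no other time. At D2 in C3H the sham mice ran from 3.26 over a median of 3.85 to 5.70 and the irradiated mice from 3.58 over 5.33 to 7.47. The groups overlapped, and 11 of 32 irradiated mice exceeded the highest sham mouse. The difference was 1.61 ± 0.28 (adjusted p = 1.33e-06), and at D5 it was 1.17 ± 0.28 (adjusted p = 0.00345). From M1 to M4 the C3H differences were 0.45 to 0.83, and none was called. In C57Bl/6 the difference was above 0 at 8 of 8 times, from 0.13 to 0.73, and 0 of 8 were called by edgeR (4 at an unadjusted p under 0.05). The C57Bl/6 value at D2, 0.73 ± 0.27 (adjusted p = 0.0709), was 1.15 with limma-voom (adjusted p = 0.0012) and 0.89 with cohort and sex as covariates (adjusted p = 0.00593), so this comparison lay near the threshold. The own-PT fit gave 1.06 at D2 and 1.00 at D5 in C3H, which were not called (adjusted p = 0.0854 and 0.233), and 1.21 and 1.32 in C57Bl/6, which were (adjusted p = 0.012 and 0.00836).

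Of the 28 comparisons of the 5p arms of miR-34b and miR-34c after irradiation, 1 was called. miR-34c-5p, the most abundant member, was called at D5 in C3H. There the 16 sham mice ran from 3.98 over a median of 5.15 to 6.28 and the 32 irradiated mice from 5.06 over 5.87 to 7.38. The difference was 0.85 ± 0.24 (adjusted p = 0.0223), and it was not called among libraries of at least 1000000 reads (0.79, adjusted p = 0.0666) or against each mouse's own PT sample (0.99, adjusted p = 0.123). At the other 5 C3H times its differences were 0.09 to 0.50, and at the 8 C57Bl/6 times -0.12 to 0.67. miR-34b-5p ran from -0.54 to 0.65 in C3H and from -0.43 to 1.82 in C57Bl/6 with no call. Its highest value, at M4 in C57Bl/6 (1.82 ± 0.71, adjusted p = 0.119), set 17 of 29 irradiated mice with at least 1 read against 3 of 16 sham mice.

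miR-449a-5p, the member from the Cdc20b locus, was not called at any time. Its differences were -0.52 to 0.11 in C3H, below 0 at 5 of 6 times, and -0.80 to 0.49 in C57Bl/6, below 0 at 4 of 8. The intervals were wide. At D2 in C3H the 95% interval was -1.22 to 0.49, which leaves the sign open. Its set means in C3H lay above the sham mean in 2 of 18 sets of cohort, sex and time, in contrast to 18 of 18 for miR-34c-3p and miR-34b-3p, a count given as a description. At PT, before irradiation, miR-34b-3p already lay above in 4 of 4 C3H sets, by 0.14 to 0.38. miR-34c-3p and miR-449a-5p each lay above in 2 of 4.

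miR-34a-5p, the p53 target that shares the 5p seed, was called higher at 2 of 6 C3H times and at 5 of 8 C57Bl/6 times. Its difference at D5 was 1.80 ± 0.22 in C3H and 1.70 ± 0.22 in C57Bl/6 (adjusted p = 1.82e-13 and 1.59e-11, edgeR). At M3 in C3H it was 0.22 ± 0.21 (adjusted p = 0.623), whereas miR-34c-3p was 1.09 at that time. Of 9 miRNA on a list of p53-responsive miRNA, all tested, 3 calls over the 6 C3H times were higher and 1 was lower, and over the 8 C57Bl/6 times 11 were higher and 0 lower. Those calls, named here after their values were seen, were miR-34a-5p and miR-192-5p (1 and 5 times higher) along with miR-194-5p (1 time higher in C57Bl/6) and miR-107-3p (1 time lower in C3H). The median difference of the list was -0.25 to 0.14 in C3H and -0.28 to 0.41 in C57Bl/6, beside -0.07 to 0.00 and -0.08 to 0.01 over all miRNA tested.

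Marker lists for other sources were read beside these results. Of the leukocyte list, 6 of 6 were measured, and their summed median share was 2.70% in sham and 1.27% in irradiated C3H mice at D2 and 1.66% and 1.13% in C57Bl/6. Over all times the share was 1.66% to 2.70% in sham and 1.07% to 3.11% in irradiated groups, with 9 calls lower in C3H and 6 lower and 1 higher in C57Bl/6. The 6 red blood cell miRNA held 40.5% to 58.5% of reads in sham and 45.7% to 58.6% in irradiated groups. They had 2 calls higher in C3H and 1 higher in C57Bl/6. The 2 liver miRNA held 0.171% to 0.406% and 0.0759% to 1.44%, with 1 call higher and 1 lower in C3H and 5 higher and 3 lower in C57Bl/6. Of 11 epithelial miRNA, all tested, 1 call was higher in C3H, and 4 were higher and 2 lower in C57Bl/6. Of 13 gonadal miRNA only 2, the arms of miR-202, passed the filter, and they had 1 higher and 5 lower calls in C3H and 2 higher and 8 lower in C57Bl/6. The part of these miRNA in the miR-34 and miR-449 results was not tested.

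The second question, which was not among the planned comparisons, was whether the 2 arms of 1 hairpin moved alike. It uses the same reads as the miR-34c-3p and miR-34c-5p comparisons above, so its calls are not separate evidence. The ratio of miR-34c-3p to miR-34c-5p reads was taken within each sample, with 0.5 reads added to both, so that the library total cancels. Before irradiation the mean log2 ratio was 0.11 in sham and 0.17 in irradiated C3H mice, and 0.68 and 0.61 in C57Bl/6 (permutation p = 0.861 and 0.811). At D2 in C3H it was -1.20 ± 0.88 (SD, n = 16) in sham mice and -0.05 ± 1.04 (n = 32) in irradiated mice. The sham mean was thus further below its PT value than the irradiated mean, and the groups differed by 1.15 ± 0.29 (SE). The two-sided permutation test gave an adjusted p of 0.00756 over the 14 comparisons of both strains.

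The ratio was higher in irradiated mice at all 6 C3H times, by 0.56 to 1.15, and each was called by the permutation test (adjusted p between 0.00756 and 0.0364). In C57Bl/6 it was higher at all 8 times, by 0.12 to 1.12, and 5 were called. The 3 that were not were D5, M1 and M6 (permutation tests, adjusted p = 0.782, 0.243 and 0.782). Among libraries of at least 1000000 reads the same numbers, 6 and 5, were called. The ratio of miR-34c-3p to miR-34b-3p, which share their seed, was higher at 6 of 6 C3H times by 0.19 to 0.54 and at 7 of 8 C57Bl/6 times, from -0.14 to 1.04. None of these 14 was called (lowest adjusted p = 0.0889, permutation test), though 4 passed at an unadjusted p under 0.05.

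**Figure D3:**
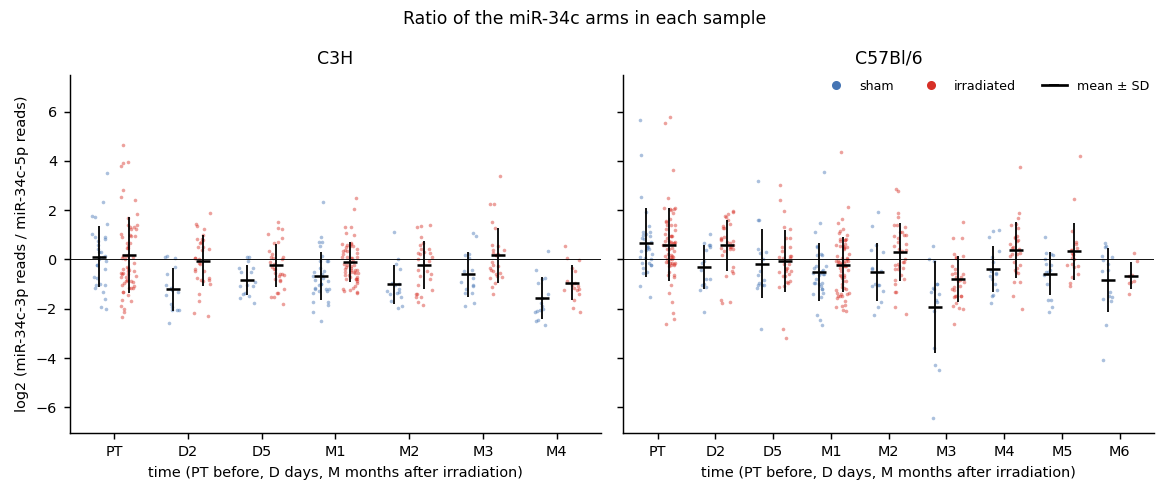
The log2 ratio of miR-34c-3p to miR-34c-5p reads in each sample by time and strain, with sham mice in blue, irradiated mice in red and black bars for the mean ± SD. In C3H the sham mean fell from 0.11 at PT to -1.20 at D2 and the irradiated mean was 0.17 and -0.05.

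The third question was whether the strains, which differ in their lung response to radiation, differed in these miRNA. Over the 6 times that both strains share, the F test of the strain difference in the irradiation effect was not passed by any member (edgeR adjusted p = 0.566 to 0.974), beside 4.35% of all miRNA. The C57Bl/6 minus C3H difference of the miR-34c-3p effect was -0.71 at D2 (95% interval -1.38 to -0.03, adjusted p = 0.605) and -0.14 at M4 (-0.87 to 0.58). The strain effect at D2 was -0.88 for miR-34b-3p (-1.60 to -0.15, adjusted p = 0.529). These unadjusted intervals at D2 lay below 0, but neither value passed adjustment over all miRNA, and the test does not show that the strains respond alike.

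Before irradiation 3 of 5 members were called between the strains in level, which is near the share over all miRNA (50.7%). The count is thus not a trait of the members. miR-449a-5p was lower in C57Bl/6, by 1.63 ± 0.24 (adjusted p = 1.01e-10), with at least 1 read in 87.5% of the 96 C3H samples at PT and a median of 9 reads. Its level there was 2.71 ± 1.24 (SD), whereas in 96 C57Bl/6 samples it was 1.41 ± 1.07, with at least 1 read in 62.5% and a median of 1 read. miR-34c-3p was higher in C57Bl/6 by 0.71 ± 0.13 (adjusted p = 1.79e-07) and miR-34b-3p by 1.01 ± 0.14 (adjusted p = 2.00e-11). Without the C57Bl/6 males of cohort 2, the miR-34b-3p difference was 0.38 (adjusted p = 0.0241), the miR-34c-3p difference 0.53 (adjusted p = 0.000394) and the miR-449a-5p difference -1.53 (adjusted p = 2.27e-08). miR-34c-5p (0.17 ± 0.13) and miR-34b-5p (-0.24 ± 0.33) were not called.

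**Figure D4:**
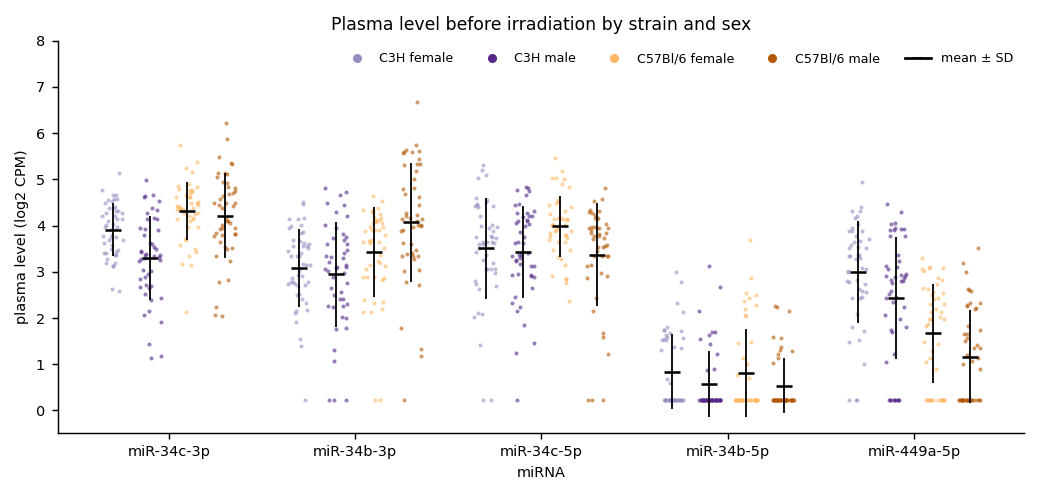
Plasma level in log2 CPM before irradiation by strain and sex for each member, with 1 point per mouse and black bars for the mean ± SD. C3H mice lie above C57Bl/6 mice in miR-449a-5p and below them in miR-34c-3p, and C57Bl/6 males have the highest miR-34b-3p values.

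Females and males were compared in level at PT and in their response. Of 10 comparisons in level, 1 was called, miR-34b-3p in C57Bl/6, with a female minus male difference of -0.93 ± 0.19 (adjusted p = 2.14e-05). In that strain 14.7% of all miRNA were called. It was 0.32 without the males of cohort 2 (adjusted p = 0.409) and -0.01 among libraries of at least 1000000 reads (adjusted p = 0.986). The F test of a sex difference in the irradiation effect over D2, D5 and M1 was passed by 0 of 5 members in each strain, beside 0.414% of all miRNA in C3H and 5.38% in C57Bl/6. At an unadjusted p under 0.05, 0 passed in C3H and 3 in C57Bl/6 (2.9% and 19.9% of all miRNA), and the limma-voom fit with the mouse as a block also gave 0 calls. The lowest adjusted p was 0.0604 for miR-34c-3p in C57Bl/6, where the irradiated minus sham difference at D2 was 1.89 ± 0.35 in females and 0.39 ± 0.33 in males. With deep libraries only, that p was 0.518.

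Sham mice did not hold a constant level, which bears on every comparison with PT. In C3H sham mice, miR-34b-3p, miR-34c-3p and miR-34c-5p passed the F test over time (edgeR adjusted p = 2.24e-07, 0.000223 and 2.20e-14), beside 46.0% of all miRNA. In C57Bl/6 sham mice these 3 and miR-34b-5p passed, beside 62.9%. At an unadjusted p under 0.05, 4 members passed in each strain, where 51.3% and 65.6% of all miRNA did. miR-449a-5p passed in neither strain (adjusted p = 0.756 and 0.222).

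Among the members, miR-34c-5p shifted at every time. It was higher than at PT at every later time in the sham mice of both strains, by 1.12 to 1.89 in C3H and by 0.75 to 1.23 in C57Bl/6, and all 14 were called, where 7.04% to 18.6% of all miRNA were called higher at a C3H time and 10.1% to 18.8% at a C57Bl/6 time. The sham median at PT was 3.70 in C3H and 3.95 in C57Bl/6, and at D2 it was 5.49 and 4.83. In C3H at D2, 15 of 16 sham mice were above their own PT value. miR-34c-3p changed less and not in the same direction: in C3H sham mice it was higher at M1 by 0.87 (adjusted p = 0.00017), and in C57Bl/6 sham mice it fell by 1.01 at M3 (adjusted p = 0.000757) and by 0.67 at M6 (adjusted p = 0.0306). miR-34b-3p was higher in C3H sham mice at D2, D5, M1 and M3, by 0.93 to 1.35. In C57Bl/6 sham mice it was 0.77 above PT at D2 and 0.84 below PT at M3 (edgeR adjusted p = 0.0213 and 0.0112). The PT group held both cohorts, with cohort 2 males that stood apart, and M3 only cohort 1. Against their own PT samples, the 16 C57Bl/6 sham mice at M3 changed by 0.08 ± 1.08 (SD) in miR-34b-3p and -0.84 ± 1.54 in miR-34c-3p. A fall of miR-34b-3p at M3 was thus not seen within mice. At M6 the own-PT change of miR-34c-3p was -0.32 ± 1.08. miR-34b-5p, at a few reads a sample, was called higher in C3H sham mice at D2, D5, M1 and M3, by 1.27 to 1.94, although it did not pass the F test over time there (adjusted p = 0.0845). In C57Bl/6 sham mice it was called higher at 6 of 8 times, by 1.69 to 2.49. At M4 in C57Bl/6, where its irradiated minus sham value was highest, its sham level differed from PT by -0.35 ± 0.69 (SE), which was not called. The relative miR-34a-5p also lay above PT in sham mice, by 0.77 to 1.49 in C3H, where every time was called. In C57Bl/6 sham mice it was called higher at every time but D5 (0.10), with the largest difference at M3 (1.68). Handling, repeated bleeding, age, the mix of cohorts and the libraries of each time cannot be told apart in these changes.

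**Figure D5:**
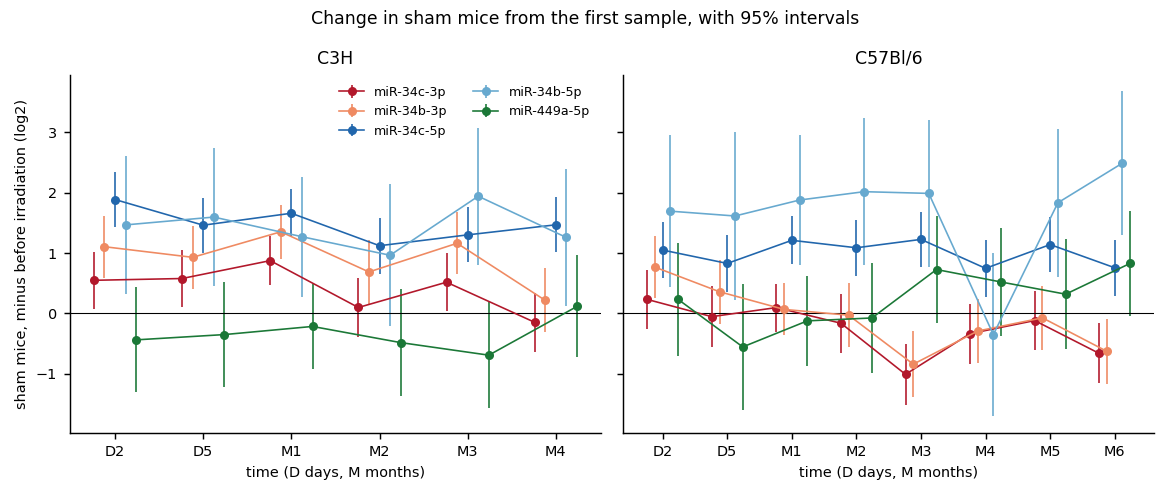
Log2 difference of each member in sham mice from PT, by time and strain, with 95% intervals. miR-34c-5p lies above 0 at all times in both strains, whereas miR-34c-3p runs from -0.15 to 0.87 in C3H and from -1.01 to 0.23 in C57Bl/6.

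Levels at D2 and D5 were compared between irradiated mice of cohort 1 that still gave a sample at the last time and those that did not. The labels do not say whether a mouse without that sample had died or only lacked a usable library. After Benjamini-Hochberg adjustment 0 of 20 exact permutation tests passed (lowest adjusted p = 0.0583), and 4 passed unadjusted. In C3H at D5, miR-34c-3p was 6.50 ± 0.44 (SD, n = 7) in mice sampled at M4 and 5.73 ± 0.55 (n = 9) in the others (exact permutation p = 0.00804). At D2, in other mice, it was 5.80 ± 1.34 (n = 10) and 6.49 ± 0.64 (n = 6), with an exact permutation p of 0.255, which leaves the direction at D2 open. The remaining tests that passed unadjusted were also in C3H, given as mice sampled at M4 minus the others. They were miR-34b-5p at D5 (-1.34, exact permutation p = 0.00734) and at D2 (1.04, p = 0.0227), and miR-34c-5p at D2 (0.67, p = 0.00874).

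Over the 32 group means, with the mean of each strain subtracted, each member was set beside the miRNA most like it. miR-34b-3p and miR-34c-3p were most like each other (Pearson r = 0.932), followed by miR-375-3p (0.698 and 0.648), an endocrine and gut miRNA, with miR-34c-5p also near the first and miR-335-5p near the second (0.659 and 0.650). miR-34c-5p was most like miR-34a-5p (0.878), then miR-34b-5p (0.729) and miR-221-3p (0.680). miR-34b-5p was most like miR-34c-5p and miR-34a-5p (0.699), then miR-30c-2-3p (0.628). miR-449a-5p was most like miR-32-5p (0.905), miR-103-3p (0.833) and miR-186-5p (0.831), and its r with miR-34b-3p was -0.64. The 32 points share mice across times and the normalization of each library, so these values are given as a description.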

How the data were processed

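Small RNA was isolated from plasma, made into QIAseq miRNA libraries and sequenced. The authors trimmed the reads, aligned them to mm10 with BaseSpace Small RNA and deposited raw read counts per mature miRNA. The miRBase release, the use of molecular identifiers and the assignment of reads that match more than 1 miRNA are not given in the sources used here. Hemolyzed plasma and runs with too few reads were rejected by the authors.

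Samples were grouped by strain, treatment and time from the labels. One edgeR 4.0.16 quasi-likelihood model (R 4.3.3, TMM, filterByExpr, 483 miRNA with 99.99% of reads, 867 residual degrees of freedom) covered all 32 groups. A separate model with sex in its groups gave the sex comparisons. Each contrast was adjusted by Benjamini-Hochberg over the 483 miRNA and called at 0.05. Log2 CPM used a prior count of 2. Arm ratios used 0.5 added reads, and permutation tests used 100000 resamples or were exact. Python 3.11.15 and scipy 1.17.1 were used, and the scripts were tested on simulated data. Group medians of depth were 855373 to 2882714 reads, and TMM factors 0.372 to 1.59.

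The named miRNA are the 5 members, the family members in full where tested, and the 3 miRNA most like each member. Members and lists were chosen with earlier results of these data known. Alternatives were limma-voom (limma 3.58.1), DESeq2 1.42.0, DESeq2 size factors, quantile normalization, no filter, sex and cohort as covariates, 1 sex or cohort alone, deep libraries only, and the mouse as a block. Samples of the same mouse are paired by the mouse code in the labels: over 99 abundant miRNA the mean correlation of deviations was 0.08 for 1962 pairs from the same mouse and -0.00017 for other mice. With the mouse as a random block (limma-voom), 9 C3H and 7 C57Bl/6 comparisons of members were called. The share of all miRNA called in that fit is not given here, so these counts have no background beside them.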

Additional observations from a re-analysis of the deposited data

Results flagged for a closer look

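Among 35 sets of 4 to 10 samples of a member, 2 had a sample that stood far from the others. Both lay in the 4 irradiated C57Bl/6 mice of cohort 1 at D2 that also gave a sample at M6. In that set the highest miR-34b-5p level was 4.05 and the highest miR-449a-5p level was 4.11, while the other 3 mice had 0 reads of each (0.23). With the other 3 tied at 0 reads, any sample with a read is flagged by this rule, so the count of 2 cannot be set beside a chance rate. The set enters the comparison by later sampling at D2, in which neither member was called by the exact permutation test.

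The female minus male difference of miR-34b-3p before irradiation was -0.93 in C57Bl/6 and -0.03 in C3H. The strain difference of the sex difference was -0.90 ± 0.27 (SE) with an adjusted p of 0.0129 by edgeR, where 15.1% of all miRNA passed. The 24 C57Bl/6 males of cohort 2, with a median of 610583 reads, moved with this value, and it was not called without them.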

How the results depend on the processing

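Of 1570 values recomputed for single members under an alternative, 1488 stayed on their side of the threshold, 47 were no longer called, 33 became called and 2 called values reversed. Among the 1488, 101 values that were not called in either setting changed sign. Both reversals of called values came from leaving out the C57Bl/6 males of cohort 2 before irradiation, an alternative added after seeing the data. There the female minus male difference of miR-34b-3p was 0.32 in C57Bl/6 and its difference between strains 0.34.

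The 9 member calls in C3H became 3 with the mouse as a fixed replicate block, 3 in females alone and 2 in males alone, and in cohort 2 alone 3 of 15 comparisons were called in place of 6. The 6 member calls in C57Bl/6 became 1 in males alone and 10 with DESeq2, and at D5 without the females of cohort 2, also added later, 0 of 5 in place of 1. Alternatives with 1 sex or cohort hold fewer mice, and other causes were not tested. For these alternatives and the fixed block, the share of all miRNA called was not counted. For DESeq2 that share is not given here, so its 10 member calls have no background beside them. Over all miRNA, 70 calls in C3H and 184 in C57Bl/6 became 245 and 511 with no filter, which tests more miRNA, and in C57Bl/6 116 with libraries of at least 1000000 reads. The sex difference in level (1 call) gave 3 with DESeq2 size factors, 0 with deep libraries and 0 without the C57Bl/6 males of cohort 2. The strain difference of that sex difference (1 call) gave 0 with limma-voom, 0 with deep libraries and 0 without those males. The sex difference of the response (0 calls) gave 1, miR-449a-5p in C57Bl/6, with deep libraries. Depth limits miR-34b-5p and miR-449a-5p most, since many samples held 0 to 5 reads.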
